A study of Mus musculus with 4 samples.

Results

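Transplanted LSK cells carrying 1 functional copy of Sf3b1 were compared with native LSK cells of the same genotype. LSK cells are mouse bone marrow cells that lack lineage markers and carry c-Kit and Sca-1, a fraction with blood-forming stem cells and early progenitors. The comparison takes 2 of the 4 arrays of the series: the array titled Sf3b1+/-_BMT_LSK minus the array titled Sf3b1+/-_LSK, for 13033 genes of 20886 on the array. The other two arrays hold wild-type (WT) LSK cells in the same settings and serve as the reference for how the same step looked in the other genotype. The native groups, WT and Sf3b1+/-, were freshly isolated from C57BL/6 mice aged 20 weeks (4 mice per the labels). For the transplanted groups, whole marrow of either genotype, marked by CD45.2, was given to lethally irradiated CD45.1+ hosts, and CD45.2+ LSK cells were sorted from the hosts 9 months later (5 recipients per the labels). Per the series text, embryos without any functional copy die early, and the heterozygous mice grow normally by gross inspection. Each group has 1 array, and the sources used here do not say how many of these mice were pooled for it. They do not give the age of the donors at transplantation either, so time, irradiation, the host and passage through transplantation cannot be told apart.

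Sf3b1 makes a core subunit of SF3b, which anchors the U2 particle of the spliceosome at the branch site of introns, and its human counterpart is often mutated in myelodysplastic syndromes. After transplantation a limited number of stem cells rebuilds all blood lineages in an emptied marrow. Stem cells of old mice are known for higher platelet-lineage and adhesion genes and for a lower output of lymphoid cells. Native cells of an adult mouse and cells that have rebuilt a host's marrow thus differ in their history and in the surroundings from which they were sorted, and per the series text the transplants were made to leave out indirect effects of the marrow environment.

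Levels are given in normalized signal units, the processed signal of the scanner software scaled so that the 75th percentile of the probes seen on all 4 arrays is equal on every array. Differences are on the log2 scale and always run transplanted minus native, and 1 probe stands for each gene, so levels of different genes are not compared. A gene counts as well above background where the scanner software marks its probe so. Genes with this mark on at least 2 of the 4 arrays were compared; 12175 of the 13033 had it on all 4, and 12526 on the native and transplanted Sf3b1+/- arrays. Spots printed several times on an array differed with an SD of 0.102 to 0.122 log2, which gives a difference between the Sf3b1+/- arrays a technical SD of 0.15. This SD holds the spread of spots within an array, for spots well above background. It leaves out labelling and hybridisation and may be too small for dim genes. There is no replicate of the animals or of the RNA. The Sf3b1 probe read 328 units in native and 253 in transplanted Sf3b1+/- cells, against 436 and 273 in wild-type cells: both transplanted arrays were below both native ones, and the Sf3b1+/- array was below the wild-type array in the native setting, while the transplanted arrays differed by less than the technical SD. Kit, which defines the gate together with Sca-1 (Ly6a), read 7323 units in native and 5619 in transplanted Sf3b1+/- cells, against 6717 and 4993 in wild-type cells, and Ly6a read 1825 units in native and 3624 in transplanted Sf3b1+/- cells, against 2096 and 2386 in wild-type cells. Of the markers of other cell types, Pax5 (B cells), Alas2 (red cells) and Cdh5 (endothelium) were well above background on no array. Measured against the spike-in transcripts, total labelled signal differed between the arrays: the median compared gene was 0.80 log2 higher in transplanted than in native Sf3b1+/- cells and 0.43 higher in the wild type. All differences are therefore relative to the bulk of genes on the array. In bulk RNA, a lower share of cells of a type and less RNA per cell cannot be told apart.

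In transplanted Sf3b1+/- cells 626 of the compared genes (4.8%) stood 2-fold or more above their native level and 219 (1.68%) as far below it. The same limits gave 364 (2.79%) and 208 (1.6%) in the wild type. Of the 626 genes, 461 passed the background mark on both arrays of the comparison and 165 on the transplanted array only. Of the 219, 153 passed on both, 63 on the native array only and 3 on neither. When a gene below background was set to the lowest signal seen well above it, or to its own signal where that was higher, 562 and 204 genes stayed at least 2-fold apart. Dim genes filled these counts: the 3259 dimmest genes, with a median of 56.3 units, held 373 of the 626 and 141 of the 219, and the 3258 brightest 48 and 6. The 1.5-fold limit was passed by 1482 genes (11.4%) upward and 914 (7.01%) downward, and in the wild type by 7.95% and 5.74%. All later counts of list members at this limit are to be read against these shares. A list near them shows only the rate of the whole array. The robust SD of the difference over all genes was 0.40 log2, against 0.37 in the wild type.

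Much of this difference appeared in both genotypes. At least 1.5-fold higher in both were 593 genes (4.55%), which is 40.0% of the Sf3b1+/- list and 57.2% of the wild-type list of 1036 genes (7.95%). At least 1.5-fold lower in both were 319 genes (2.45%), 34.9% of the Sf3b1+/- list and 42.6% of the 748 wild-type genes (5.74%). Opposite differences of that size were seen for 42 of the genes higher and 30 of the genes lower in Sf3b1+/- cells. The contrasts share no array, and their correlation across genes was 0.65 (Pearson) and 0.59 (Spearman, on ranks), with the same sign for 72.9% of genes. Genes are not independent replicates, so these are descriptions of 4 arrays. Among the 593 shared genes the median difference was 1.19 in Sf3b1+/- and 0.95 in wild-type cells, and among the 319 it was -0.93 and -0.81. Over all genes, 50.5% had the larger signed difference in Sf3b1+/- cells. The plot of both contrasts shows these relations.

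**Figure D1:**
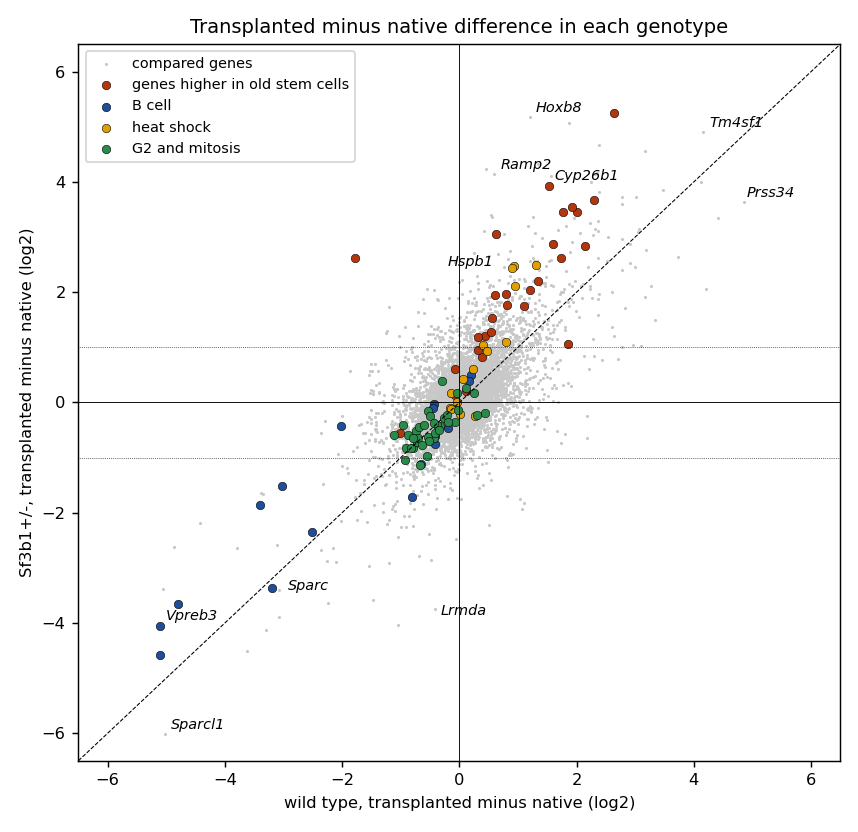
Each point is 1 of 13033 compared genes, with the transplanted minus native difference (log2) of the wild type on the x axis and of Sf3b1+/- cells on the y axis, and the dashed line marks equal differences. Genes higher in old stem cells (red) lie mostly above the line, B cell genes (blue) reach the lower left in both genotypes, and the dotted lines mark 2-fold in Sf3b1+/- cells.

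The only test this design allows joins the genotypes. With limma, an additive model of setting and genotype over the 4 arrays (1 residual degree of freedom, Benjamini-Hochberg adjusted p under 0.05) called 56 genes higher (0.43%) and 20 lower (0.153%) in transplanted cells, and 3357 genes had an unadjusted p under 0.05. These counts depend on the processing. Quantile normalization, cyclic loess and the unfiltered table gave none, with 3302, 3306 and 3560 genes at an unadjusted p under 0.05, and the authors' deposited values gave 4 and 3. The 56 include Lgals3 (galectin-3), Upb1, Tm4sf1, Cldn5, Aif1, Bmp4, H2-Aa and H2-Eb1, and the 20 include Vpreb3, Igll1, Ebf1, Pou2af1, Rag1, Sparc, Sparcl1 and Col1a1. Ebf1, Sparcl1 and Col1a1 were well above background on the native arrays only. They entered the test through the arrays where they are high, with transplanted values below background, so their calls add no support. A p from this model says nothing on whether Sf3b1+/- cells differ from wild type in their response, which was not tested because the residual of the model is that contrast. The spread behind these p-values mixes any difference in response between the genotypes with array-to-array variation, part of which may be technical. A gene whose step was unlike in the genotypes thus gets a larger p. The labels do not state a separate origin of the samples, so the p-values give no measure of spread between animals.

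The gene with the largest difference among those seen on all 4 arrays was Tm4sf1, a four-pass membrane protein of endothelial and tumour cells. It read 54.5 units in native and 1630.3 in transplanted Sf3b1+/- cells, against 57.4 and 1027 in wild-type cells. Both transplanted arrays stood far above both native ones, by 29.9-fold in Sf3b1+/- and 17.9-fold in wild-type cells (limma adjusted p = 0.0356 over both genotypes). Ramp2 followed. Its product escorts the calcitonin receptor-like receptor to the surface and makes it a receptor for adrenomedullin. Ramp2 read 129 units in native and 2272 in transplanted Sf3b1+/- cells, against 137 and 208 in wild-type cells, so the transplanted Sf3b1+/- array was 17.6-fold above its native partner while the other three arrays stayed at 208 units or below. Its partner receptor Calcrl did not follow, with a difference of -0.66 in Sf3b1+/- and -0.27 in wild-type cells, and the ligand Adm was at -0.36 and -1.42. Ccn1, a secreted matrix-associated protein, read 126 units in native and 1517 in transplanted Sf3b1+/- cells, against 43.2 and 296 in wild-type cells. It was higher on both transplanted arrays, at 3.60 and 2.78 log2 (limma adjusted p = 0.0394). Gkn3, a gastrokine, differed by 3.51 and 1.75, Insrr, a receptor related to the insulin receptor, by 3.37 and 1.25, and Lbhd2 by 3.29 and 2.36. Each of these 3 was higher on both transplanted arrays than on both native arrays. 

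Lgals3, which encodes the sugar-binding protein galectin-3, was among the genes with nearly the same step in both genotypes. It read 302 units in native and 2366 in transplanted Sf3b1+/- cells, against 422 and 2899 in wild-type cells (limma adjusted p = 0.0334). Upb1, an enzyme of pyrimidine breakdown, differed by 3.08 in Sf3b1+/- and 3.04 in wild-type cells, and Aif1, a calcium-binding protein of macrophages, by 2.61 and 2.36. Cldn5, the tight-junction protein claudin-5, differed by 2.45 and 2.99. All 4 were higher on both transplanted arrays. Clca3a2 was at 3.00 and 2.53, but its probe may read the related Clca3a1 too. Csprs was at 3.25 and 2.23, and its probes disagreed in Sf3b1+/- cells, from 0.16 to 3.25.

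**Figure D2:**
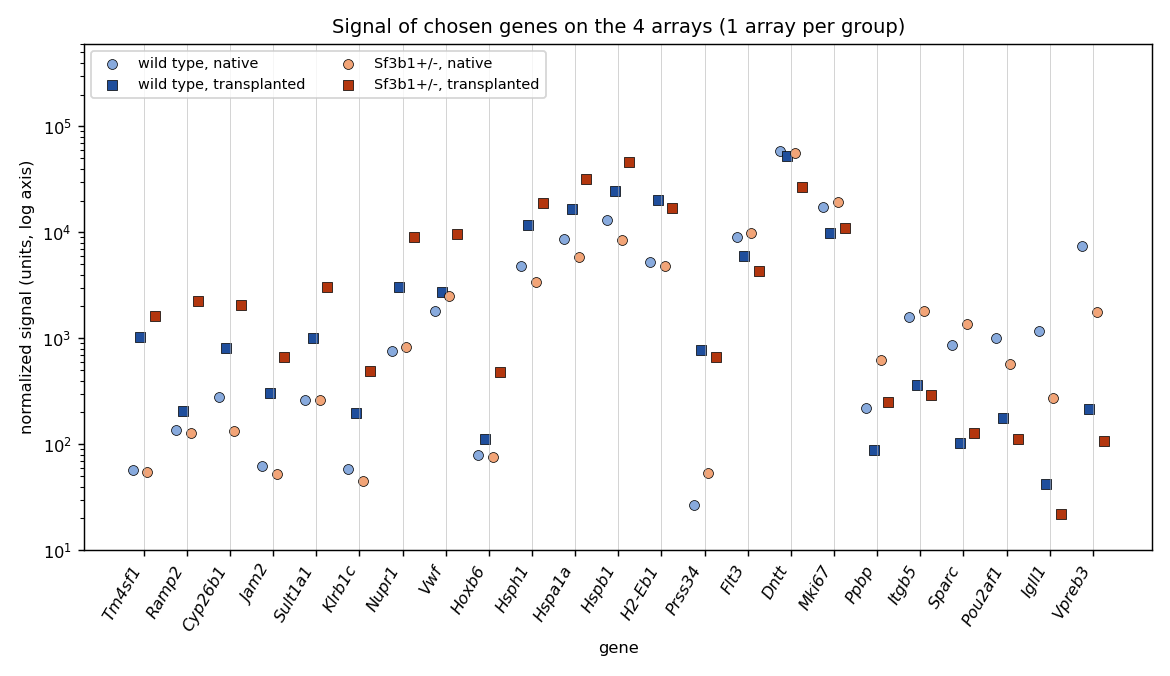
Normalized signal (log axis) of 23 genes on each of the 4 arrays, 1 array per group, with circles for native and squares for transplanted cells, blue for wild type and orange to red for Sf3b1+/-. Ramp2 and Hoxb6 stand out on the transplanted Sf3b1+/- array alone, at 2272 and 479 units, while Sparc, Igll1 and Vpreb3 are low on both transplanted arrays.

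The group with the largest median was the one named for stem cells of old mice. Of 28 such genes compared (of 30 on the array), 25 were at least 1.5-fold higher in transplanted Sf3b1+/- cells and none was lower by that much, and the median difference was 1.96, against 0.01 over all genes. With members below background at their bound the median was 1.86. In the wild type 17 were higher, 2 were lower and the median was 0.81. The difference was the larger one in Sf3b1+/- cells for 27 of 28, where 50.5% is the share over all genes. The exception was Zg16, at 1.06 and 1.85. Of the 28, 25 were seen on all 4 arrays, with a median of 1.77 in Sf3b1+/- cells. At least 1 of the others, Neo1, entered only through the transplanted arrays, where it is high. The list was also drawn up with earlier results known, so these counts describe it and test nothing. Cyp26b1, which degrades retinoic acid, read 135 units in native and 2047 in transplanted Sf3b1+/- cells, against 282 and 809.5 in wild-type cells. Jam2, a junctional adhesion molecule, read 52.5 units in native and 665 in transplanted Sf3b1+/- cells, against 61.9 and 304 in wild-type cells. Sult1a1, a sulfotransferase of phenols, read 264 units in native and 3077 in transplanted Sf3b1+/- cells, against 265 and 1000.2 in wild-type cells. In all 3 genes the order was the same: both native arrays low, transplanted wild type between, and transplanted Sf3b1+/- highest. Nupr1, a small stress-induced nuclear protein, reached the highest level of its 4 arrays in transplanted Sf3b1+/- cells, with 833 units in native and 9147 in transplanted Sf3b1+/- cells, against 765 and 3073 in wild-type cells. Klrb1c, which encodes the surface antigen NK1.1, read 44.9 units in native and 493 in transplanted Sf3b1+/- cells, against 58.2 and 199 in wild-type cells. These differences were 3.46 and 3.46 in Sf3b1+/- cells and 2.01 and 1.77 in the wild type, and for both genes the transplanted arrays lay above the native ones.

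Platelet-lineage members of this group, Selp and Vwf, were higher too. Selp encodes the adhesion receptor P-selectin and read 276 units in native and 2019.8 in transplanted Sf3b1+/- cells, against 447 and 1359 in wild-type cells. Vwf, the von Willebrand factor that carries platelets to injured vessels, read 2505 units in native and 9656 in transplanted Sf3b1+/- cells, against 1797 and 2728 in wild-type cells, so its transplanted Sf3b1+/- array was 3.85-fold above the native one and the wild-type step was 1.52-fold. The secreted chaperone Clu differed by 2.04 and 1.20, and Aldh1a1, an enzyme that makes retinoic acid, by 1.75 and 1.11. The metal-binding Mt1 and Mt2 were higher by 1.21 and 1.27 in Sf3b1+/- and by 0.44 and 0.55 in wild-type cells. Neo1, the netrin receptor neogenin, was not well above background on either native array and read 394 units on the transplanted Sf3b1+/- array and 63.3 on the transplanted wild-type one. Against the lowest signal seen well above background, Neo1 was at least 19.1-fold higher in transplanted Sf3b1+/- cells. All later "at least" values for genes seen on 1 of these arrays are made in the same way, with the gene's own signal where that was higher. Some genes without the mark read above this lowest signal, such as Adgre1 at 23.3 units against 20.6 on the native Sf3b1+/- array. These values are therefore not strict minima. Members without a step of 1.5-fold were Fyb at 0.20, Alcam at 0.14 and Mamdc2 at -0.56. Earlier results of these data were known when this list was drawn up.

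Stem cell surface and signalling genes were higher in part. Of 24 compared, 12 were at least 1.5-fold higher and 1 lower, with a median of 0.55, or 0.47 over the 22 seen on all 4 arrays. In the wild type 3 were higher and 0 lower, with a median of 0.06. Slamf1, the CD150 receptor used to sort stem cells, read 88.6 units in native and 525 in transplanted Sf3b1+/- cells, against 83.0 and 207 in wild-type cells. Procr, the endothelial protein C receptor, read 1802 units in native and 4363 in transplanted Sf3b1+/- cells, against 2133 and 2444 in wild-type cells. The angiopoietin receptor Tek read 37.7 units in native and 90.9 in transplanted Sf3b1+/- cells, against 35.9 and 38.1 in wild-type cells. Slamf1 was higher on both transplanted arrays, and for Procr and Tek the transplanted Sf3b1+/- array stood apart, since their wild-type differences were only 0.20 and 0.08. The same held for Ly6a, which encodes the Sca-1 antigen of the gate, at 0.99 and 0.19. Esam, an adhesion molecule of stem cells and endothelium, was at 0.78 and 0.07, and Tie1, related to Tek, at 0.86 and -0.40.

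Stem cell transcription factors did not follow the surface genes. Over 25 factors the median was -0.18 (-0.39 in wild type), with 4 at least 1.5-fold higher and 3 lower. Hlf, a bZIP factor of stem cells, read 6582 units in native and 3242 in transplanted Sf3b1+/- cells, against 5213 and 3102 in wild-type cells, lower on both transplanted arrays. The ETS factor Erg was lower too, at -0.83 and -0.57. Mecom, whose product EVI1 maintains stem cells, was at -0.48 and -0.88. Hoxb5 read 68.5 units in native and 241 in transplanted Sf3b1+/- cells, against 58.7 and 91.0 in wild-type cells, and Mllt3, a regulator of transcript elongation, differed by 0.97 and 0.23. For both, the transplanted Sf3b1+/- array was the highest of the 4.

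Hoxb genes as a cluster were higher on the transplanted Sf3b1+/- array. Hox genes encode homeodomain factors that set position in the embryo and are active in blood stem cells. Of 17 Hox genes compared (of 39 on the array), 9 were at least 1.5-fold higher and 0 lower, with a median of 0.71, or 0.38 over the 12 seen on all 4 arrays. Members seen only on the transplanted arrays entered through the arrays where they are high, and without the filter on background the list's median relative to all genes was -0.16. Hoxb6 read 75.8 units in native and 479 in transplanted Sf3b1+/- cells, against 78.8 and 112 in wild-type cells. Hoxb2 read 169 units in native and 574 in transplanted Sf3b1+/- cells, against 120.1 and 192 in wild-type cells, and Hoxb4, used to expand blood stem cells in culture, 351 units in native and 658 in transplanted Sf3b1+/- cells, against 357 and 430.1 in wild-type cells. In these 3 genes the transplanted Sf3b1+/- array was the highest and transplanted wild type the next. Hoxb8 and Hoxb9 were well above background on both transplanted arrays only, and were at least 27.4-fold and 6.45-fold higher in transplanted Sf3b1+/- cells. The Hoxa genes gave no such shift: Hoxa7 differed by -0.21, Hoxa9 by -0.20, Hoxa5 by -0.42 and Hoxa3 by -0.58, while Hoxa10 was at 0.71. Rarb, a retinoic acid receptor gene, read 63.3 units in native and 296 in transplanted Sf3b1+/- cells, against 106 and 109 in wild-type cells.

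B-lineage genes were the group with the lowest median. Vpreb1, Vpreb2, Vpreb3 and Igll1 encode parts of or partners of the surrogate light chain, which pairs with the heavy chain in early B cells. Vpreb3 read 1776 units in native and 106.97 in transplanted Sf3b1+/- cells, against 7365 and 214 in wild-type cells. Igll1 read 274 units in native and 21.8 in transplanted Sf3b1+/- cells, against 1179 and 42.4 in wild-type cells, and Vpreb1 2199 units in native and 607 in transplanted Sf3b1+/- cells, against 9868 and 929 in wild-type cells. In all 3 genes both transplanted arrays were far below both native arrays, and in both settings the Sf3b1+/- array was below the wild-type one. The native Sf3b1+/- level was below the wild-type one, and the difference was the smaller one in Sf3b1+/- cells, with -4.05, -3.65 and -1.86 against -5.11, -4.80 and -3.41. Of 17 B cell genes compared, 11 were at least 1.5-fold lower and 0 higher in transplanted Sf3b1+/- cells, with a median of -1.12 (-0.81 in wild type). Pou2af1, a B cell coactivator, read 575 units in native and 113 in transplanted Sf3b1+/- cells, against 1016 and 177 in wild-type cells (limma adjusted p = 0.0381). The B-lineage factor Ebf1 was well above background on the native arrays only, so it was at least 5.57-fold lower in transplanted Sf3b1+/- cells. Jchain, the joining chain of antibodies, read 21529 units in native and 6518 in transplanted Sf3b1+/- cells, against 17893 and 10196 in wild-type cells. Cd79b stayed at -0.03 and Cd24a at -0.11. Pax5 was not well above background on any array. Of 5 defining B cell markers, 4 were well above background in native and 1 in transplanted Sf3b1+/- cells, with summed levels of 4027 and 3830 units (5810 and 4020 in the wild type), most of it from Cd79b. The part of B-lineage cells in these differences was not tested.

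Genes of lymphoid-primed progenitors were lower in transplanted Sf3b1+/- cells. Of 21 genes, 9 were at least 1.5-fold lower and 0 higher, with a median of -0.50, and in the wild type 4 were lower and 4 higher, with a median of -0.01. Dntt, the terminal transferase that adds bases at the joints of antigen receptor genes, read 56454 units in native and 26765 in transplanted Sf3b1+/- cells, against 58224 and 53086 in wild-type cells, so 1 array, the transplanted Sf3b1+/- one, was low. Flt3, the receptor whose ligand drives lymphoid priming, read 9979 units in native and 4349.9 in transplanted Sf3b1+/- cells, against 9129.5 and 5999.6 in wild-type cells, with both transplanted arrays below both native ones. Ikzf1, which encodes the lymphoid regulator Ikaros, read 1554 units in native and 839.5 in transplanted Sf3b1+/- cells, against 1399 and 1124 in wild-type cells. The interleukin-7 receptor gene Il7r differed by -0.50 in Sf3b1+/- and 0.62 in wild-type cells. Rag1, a subunit of the recombinase, read 120.0 units in native and 27.1 in transplanted Sf3b1+/- cells, against 150.0 and 36.9 in wild-type cells (limma adjusted p = 0.0381), and its partner Rag2 differed by -1.19 and -0.60. Whether the genotypes differ in any of these genes was not tested, since 1 array stands for each group.

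T and NK genes gave mixed values. Of 21 compared, 9 were at least 1.5-fold higher and 2 lower in transplanted Sf3b1+/- cells, or 7 and 2 with members below background at their bound. The medians were 0.35 (0.32 at the bound) and 0.36 in the wild type, where 8 were higher and 0 lower. Cd7, an early lymphoid surface protein, read 154 units in native and 407 in transplanted Sf3b1+/- cells, against 259 and 788 in wild-type cells. Il2rb, a chain of the interleukin-2 and interleukin-15 receptors, differed by 1.65 and 1.23, and Xcl1, a chemokine of NK and T cells, by 1.42 and 1.27. The T cell receptor partners disagreed. Cd3g, at 25.7 units in native and 8.79 in transplanted Sf3b1+/- cells, was at least 1.57-fold lower. Cd3d went the other way, at 8.54 and 22.5 units, and passed the background mark on the transplanted one of these arrays only. Both chains were close to background. Cd3e was at -0.09, with the granule protein Nkg7 at -0.16. Klrd1, an NK receptor chain, was at least 4.4-fold higher. Of 5 defining T and NK markers, 3 were well above background in native and 4 in transplanted Sf3b1+/- cells. Their summed levels were 20690.4 and 18508 units, most of it from Nkg7.

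Megakaryocyte genes were higher in transplanted Sf3b1+/- cells as a group. Of 22 compared, 10 were at least 1.5-fold higher and 2 lower, and the median was 0.51 against -0.02 in the wild type. Besides Vwf and Selp, these include Itga2b, the integrin chain CD41, which read 911 units in native and 1943 in transplanted Sf3b1+/- cells, against 676 and 806 in wild-type cells. Its partner Itgb3 read 1378 units in native and 2429 in transplanted Sf3b1+/- cells, against 914 and 1195 in wild-type cells. Mmrn1, a platelet matrix protein, differed by 0.81 and -0.49, and Gp9, part of the von Willebrand factor receptor, by 0.63 and -0.03. The transplanted Sf3b1+/- array was the highest of the 4 for each of these genes. Ppbp, a chemokine of platelet granules, went the other way and read 631 units in native and 248 in transplanted Sf3b1+/- cells, against 221 and 88.5 in wild-type cells, with each transplanted array below its own native partner. Pf4, another such chemokine, differed by 0.41 and 0.31. All 4 defining megakaryocyte markers passed the background mark in both settings. Their summed levels were 36647 units in native and 49794 in transplanted Sf3b1+/- cells (23410.1 and 28449.9 in the wild type), most of it from Pf4. The part of megakaryocyte-lineage cells in these differences was not tested.

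Erythroid genes had no common direction. Of 18 compared, 5 were at least 1.5-fold higher and 4 lower, with a median of 0.13. Car1, carbonic anhydrase 1 of red cell progenitors, read 862 units in native and 333 in transplanted Sf3b1+/- cells, against 497 and 609 in wild-type cells. The blood group antigen gene Rhd read 246 units in native and 81.8 in transplanted Sf3b1+/- cells, against 173 and 159 in wild-type cells. In both genes the transplanted Sf3b1+/- array was the lowest and the native Sf3b1+/- array the highest. Klf1, the erythroid zinc finger factor, differed by -0.86 and -0.05, while Tfrc, the transferrin receptor, was higher at 1.06 and 0.92. Hba-a1 and Hba-a2 were at 1.13 and 0.66, and their probes may read both alpha-globins. The defining gene Alas2 was not well above background on any array.

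Macrophage and dendritic cell genes were mostly higher after transplantation of Sf3b1+/- marrow. Of 14 compared, 11 were at least 1.5-fold higher and none was lower, with a median of 0.97, and in the wild type 6 were higher and 1 lower, with a median of 0.50. Irf8, a factor that directs progenitors to monocytes and dendritic cells, read 5857 units in native and 14175 in transplanted Sf3b1+/- cells, against 6909 and 15524 in wild-type cells. Batf3, needed for cross-presenting dendritic cells, read 27.3 units in native and 205 in transplanted Sf3b1+/- cells, against 56.6 and 215 in wild-type cells, and Cd14, a receptor for bacterial lipopolysaccharide, 119.9 units in native and 567 in transplanted Sf3b1+/- cells, against 281 and 568 in wild-type cells. For all 3 both transplanted arrays were above both native arrays. Genes of MHC class II, which present peptides to helper T cells, included H2-Eb1 at 4827 units in native and 17093 in transplanted Sf3b1+/- cells, against 5241 and 20099.5 in wild-type cells (limma adjusted p = 0.0383). H2-Aa differed by 1.9979 and 1.74, and the invariant chain Cd74 by 1.5001 and 1.08. Over 12 genes of this pathway 4 were higher and 2 lower, the latter being H2-Ob (-1.22), a brake on peptide loading, and the regulator Rfxap (-0.88). Of the defining macrophage markers, C1qa and C1qc were well above background on the transplanted Sf3b1+/- array alone, at 59.4 and 87.0 units, C1qb differed by 0.61 and -0.51, and Csf1r read 4477 units in native and 7059.8 in transplanted Sf3b1+/- cells, against 6342 and 8456 in wild-type cells. The summed level of 5 such markers was 4592 units in native and 7346 in transplanted Sf3b1+/- cells, against 6484 and 8559 in the wild type, most of it from Csf1r. The part of such cells in these differences was not tested.

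Genes of mast cells, basophils and eosinophils went both ways: of 19 compared, 4 were at least 1.5-fold higher and 5 lower in transplanted Sf3b1+/- cells (5 and 5 in the wild type). The members described here were picked after their values were seen. Prss34, a basophil protease, read 53.7 units in native and 666 in transplanted Sf3b1+/- cells, against 26.9 and 777 in wild-type cells. Fcer1a, the IgE receptor chain, read 255 units in native and 838 in transplanted Sf3b1+/- cells, against 159 and 1121 in wild-type cells, and the basophil protease Mcpt8 886 units in native and 2435 in transplanted Sf3b1+/- cells, against 712 and 2309 in wild-type cells. Both transplanted arrays were above both native ones in these 3 genes, with limma adjusted p of 0.0418 for Prss34 and 0.0499 for Mcpt8. Ear2, an eosinophil ribonuclease, read 1324 units in native and 535 in transplanted Sf3b1+/- cells, against 551 and 188 in wild-type cells, each transplanted array being below its own native partner. Its relatives Rnase2a and Ear1 differed by -1.37 and -1.04 in Sf3b1+/- cells. Probes of this family may read more than 1 member. Other eosinophil granule genes differed less, with Epx at -0.24 and -0.86 and Prg2 at 0.28 and -0.35, and the mast cell protease Cpa3 was at -0.09. All 4 defining markers of these cells passed the background mark in both settings, with summed levels of 5332 and 7144 units (4457 and 5669 in the wild type).

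Of 20 neutrophil genes compared, 5 were at least 1.5-fold higher and 1 lower in transplanted Sf3b1+/- cells, with a median of 0.08, and in the wild type 9 were higher and 0 lower with a median of 0.45. Prtn3, proteinase 3, read 4623 units in native and 10149.5 in transplanted Sf3b1+/- cells, against 5433 and 8523 in wild-type cells, and Ctsg, cathepsin G, 52211 units in native and 82437 in transplanted Sf3b1+/- cells, against 49699 and 80508 in wild-type cells. Lyz2, the lysozyme of myeloid cells, was higher by 1.86 and 0.82. Of the 4 defining neutrophil markers on the array, which belong to late stages, S100a9 was at 0.16 and 1.04, S100a8 at -0.23 and 0.78, Camp at -0.11 and 1.35, and Ngp at 0.78 and 0.52.

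Several genes of bone and stromal matrix were lower in transplanted cells of both genotypes, though the list of endothelium and marrow stroma was not lower as a group: of 11 compared, 3 were at least 1.5-fold higher and 2 lower, with a median of -0.06 (2, 3 and -0.09 in the wild type). Sparc, a collagen-binding matrix protein of bone and stroma, read 1356 units in native and 129 in transplanted Sf3b1+/- cells, against 861 and 103 in wild-type cells (limma adjusted p = 0.0334). Col1a2, a chain of type I collagen, read 323 units in native and 122 in transplanted Sf3b1+/- cells, against 313 and 101 in wild-type cells. Both genes were lower on both transplanted arrays than on both native arrays. Col1a1, the partner chain, and Sparcl1, a relative of Sparc, were well above background on the native arrays only, and were at least 13.1-fold and 13.6-fold lower in transplanted Sf3b1+/- cells. The same held for S100b, a calcium-binding protein of glia and other cells, and Bglap2, an osteocalcin gene, at least 6.45-fold and 6.21-fold lower. Endothelial markers did not go along: Cdh5 was not well above background anywhere, Emcn differed by -0.19, Pecam1 by 0.43 and Cldn5 by 2.45. Lepr, the leptin receptor of marrow stroma, read 1537 units in native and 1477 in transplanted Sf3b1+/- cells, against 1996 and 2677 in wild-type cells. Of 5 endothelial and stromal markers, 4 were well above background in native and 3 in transplanted Sf3b1+/- cells, with summed levels of 1955 and 1904 units (2338 and 3045 in the wild type), most of it from Lepr. The part of stromal cells in this difference was not tested.

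Other matrix and junction genes went both ways. Of 21 compared (of 38 on the array), 10 were at least 1.5-fold higher and 3 lower in transplanted Sf3b1+/- cells, with a median of 0.23 (5, 4 and 0.03 in the wild type). Col18a1, the source of endostatin, read 107.03 units in native and 594 in transplanted Sf3b1+/- cells, against 71.3 and 131 in wild-type cells, and Jam3, a partner of Jam2, 68.8 units in native and 379 in transplanted Sf3b1+/- cells, against 109 and 185 in wild-type cells. For both, transplanted Sf3b1+/- cells stood highest and transplanted wild-type cells second. Itgb5, an integrin chain, was lower on both transplanted arrays and read 1808 units in native and 291 in transplanted Sf3b1+/- cells, against 1597 and 360.0 in wild-type cells (limma adjusted p = 0.0394). Homing genes differed little. Of 22, 4 were higher and 0 lower (11.4% and 7.01% over all genes), with Cxcr4, the receptor that holds stem cells in marrow, at 0.54 and 0.46.

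Heat shock genes were higher in transplanted Sf3b1+/- cells. These genes encode chaperones that refold damaged proteins, and the factor HSF1 is known to bind repeats of the heat shock element upstream of them. The promoters of Hspa1a (chr17:34972157-34972406, minus strand) and Hspb1 (chr5:135887669-135887918, plus strand) are shown as chosen examples. These genes were among the 3 furthest apart in the group, with Hsph1, whose promoter is not shown. Each sequence gives the 250 bases before the start in RefSeq's GRCm38.p6, 5′ to 3′ on the gene's strand. Capitals mark matches to GAANNTTC, which reads the same on both strands.
Hspa1a: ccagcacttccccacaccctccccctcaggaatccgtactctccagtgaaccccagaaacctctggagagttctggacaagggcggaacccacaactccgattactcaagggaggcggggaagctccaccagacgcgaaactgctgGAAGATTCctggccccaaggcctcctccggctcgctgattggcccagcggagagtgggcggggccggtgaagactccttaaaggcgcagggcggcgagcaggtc
Hspb1: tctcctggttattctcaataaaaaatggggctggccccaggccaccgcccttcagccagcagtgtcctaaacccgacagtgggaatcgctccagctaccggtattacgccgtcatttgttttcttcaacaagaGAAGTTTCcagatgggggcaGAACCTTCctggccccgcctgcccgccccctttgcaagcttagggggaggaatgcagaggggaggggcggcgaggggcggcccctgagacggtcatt
Hspa1a held 1 match and Hspb1 2, at 104 bases before the start in the first and at 117 and 97 in the other. Of the 15 compared heat shock genes, 11 had a promoter in the table and 4 of these held the motif (Hspa1a, Hspb1, Dnaja1 and Hspe1), against 6.78% of 27025 promoters of this length. Hsph1, the gene furthest apart in the group, was not among these 4. A match is a string of letters, not a bound site.

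Of 15 heat shock genes, 8 were at least 1.5-fold higher and none lower, with a median of 0.60 against 0.26 in the wild type. Hsph1, a partner of Hsp70 that helps dissolve aggregates, read 3379 units in native and 19113 in transplanted Sf3b1+/- cells, against 4811 and 11849.6 in wild-type cells. Hspa1a, the inducible Hsp70, read 5810.0 units in native and 32223 in transplanted Sf3b1+/- cells, against 8723 and 16595 in wild-type cells, although its probe may read the near-identical Hspa1b. Hspb1, a small chaperone, read 8531 units in native and 45920.0 in transplanted Sf3b1+/- cells, against 13186 and 24551 in wild-type cells. In all 3 genes the order of the arrays was native Sf3b1+/-, native wild type, transplanted wild type and transplanted Sf3b1+/-, so the native Sf3b1+/- array was the lowest and its transplanted partner the highest. Bag3, a cochaperone that is induced with them, gave the same order, at 2.12 and 0.95. The mitochondrial Hspe1 differed by 1.09 and 0.79, and Dnajb1, a J-domain partner of Hsp70, by 1.04 and 0.41. The constitutive members Hsp90ab1 (-0.10) and Hspa8 (-0.21) and the factor Hsf1 itself (0.00) were not higher, although another Hspa8 probe gave 1.497.

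Interferon response genes were higher too. Type I interferon acts through the ISGF3 complex, which is known to bind the interferon-stimulated response element. The promoters of Isg15 (chr4:156200819-156201068, minus strand) and Ifit1 (chr19:34640639-34640888, plus strand) are shown as above, with capitals for the element's core on either strand, GAAA and GAAA with any 2 bases between them. The 3 matches in Isg15 overlap each other.
Isg15: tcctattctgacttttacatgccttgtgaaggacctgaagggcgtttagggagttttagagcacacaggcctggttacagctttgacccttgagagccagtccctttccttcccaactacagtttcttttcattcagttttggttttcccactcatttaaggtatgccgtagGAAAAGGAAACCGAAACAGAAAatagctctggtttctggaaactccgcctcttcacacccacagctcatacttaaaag
Ifit1: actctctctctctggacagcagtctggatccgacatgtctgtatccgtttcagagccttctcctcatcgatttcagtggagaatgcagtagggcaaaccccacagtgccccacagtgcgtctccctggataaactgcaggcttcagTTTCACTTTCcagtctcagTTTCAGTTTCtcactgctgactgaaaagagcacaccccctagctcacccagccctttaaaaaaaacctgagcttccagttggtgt
Of the 34 compared interferon genes, 27 had a promoter in the table and 11 of these held the motif, against 3.04% of all 27025. The 11 were Bst2, Gbp2, Gbp3, Ifit1, Ifit3, Irgm1, Isg15, Oas1a, Oas3, Rsad2 and Stat2. Isg15 and Ifit1 are chosen examples, and Ifi27l2a, Oas2 and Oasl1, described below, were not among the 11.

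Of 34 interferon genes, 17 were at least 1.5-fold higher in transplanted Sf3b1+/- cells and none was lower, with a median of 0.58. In the wild type 6 were higher and 0 lower, with a median of 0.27. Isg15, a ubiquitin-like protein, read 1650.4 units in native and 3389.8 in transplanted Sf3b1+/- cells, against 1878 and 3027 in wild-type cells. Ifit1, which binds foreign RNA ends, read 42.1 units in native and 98.4 in transplanted Sf3b1+/- cells, against 35.1 and 83.9 in wild-type cells, and Oas2, a sensor of double-stranded RNA, 406 units in native and 1145 in transplanted Sf3b1+/- cells, against 499 and 802 in wild-type cells. Both transplanted arrays were higher than both native arrays for each of these. Ifi27l2a read 1782 units in native and 5547 in transplanted Sf3b1+/- cells, against 3452 and 8704 in wild-type cells and Oasl1 differed by 1.29 and 1.06. Rsad2, the antiviral enzyme viperin, was at 1.16 in Sf3b1+/- and -0.13 in wild-type cells.

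**Figure D3:**
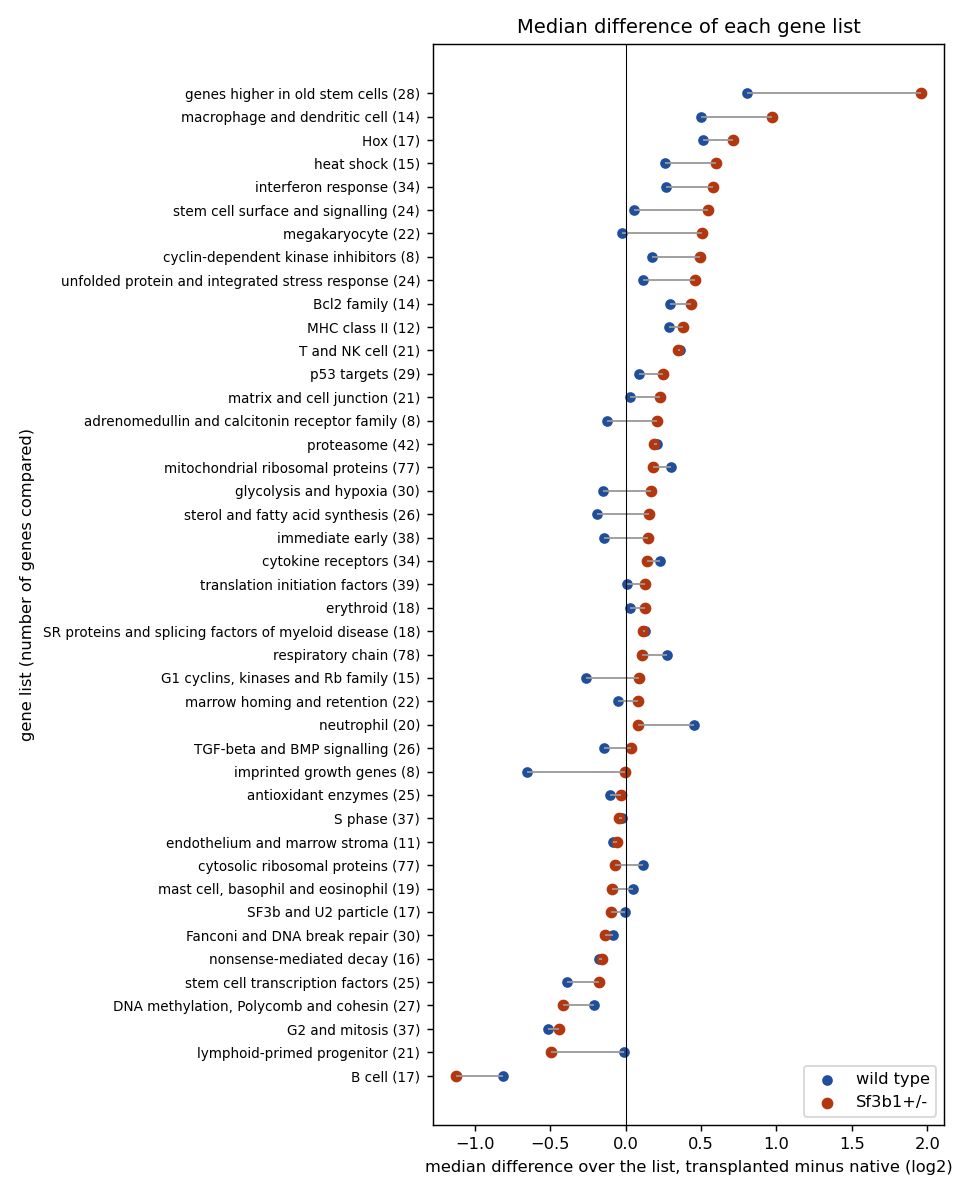
Median transplanted minus native difference (log2) of each gene list with at least 5 compared genes, in Sf3b1+/- cells (red) and the wild type (blue), with the number of genes compared in brackets. The list of genes higher in old stem cells lies at 1.96 and 0.81, and B cell genes lie at -1.12 and -0.81.

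Stress genes of the secretory pathway and of p53 were higher in part. Of 24 genes of the unfolded protein and integrated stress responses, 11 were at least 1.5-fold higher and 1 lower, with medians of 0.46 (0.40 with members below background at their bound) and 0.12 in the wild type. Trib3, a pseudokinase induced by ATF4 and CHOP, read 555 units in native and 1327 in transplanted Sf3b1+/- cells, against 1201 and 1307 in wild-type cells. Chac1, which breaks down glutathione, read 199 units in native and 467 in transplanted Sf3b1+/- cells, against 707 and 704 in wild-type cells, and Ddit3, which encodes CHOP, 2033 units in native and 3491 in transplanted Sf3b1+/- cells, against 3511 and 3702 in wild-type cells. In these 3 genes the native Sf3b1+/- array was low and the other three were closer to each other. Xbp1, a factor of secretory stress, instead took a similar step in both genotypes, at 0.64 and 0.64. Of 29 p53 targets, 8 were higher and 1 lower. Cdkn1a, the p21 inhibitor of cyclin-dependent kinases, read 2493 units in native and 5504 in transplanted Sf3b1+/- cells, against 4690.0 and 4979 in wild-type cells, and Phlda3, an inhibitor of Akt, 549.5 units in native and 1215 in transplanted Sf3b1+/- cells, against 426 and 491 in wild-type cells. Pmaip1, the death gene NOXA, read 1756 units in native and 5805 in transplanted Sf3b1+/- cells, against 2651 and 5922 in wild-type cells. Bbc3, the death gene PUMA, was at 1.1014 and 0.35, Mcl1, which keeps stem cells alive, at 0.76 and -0.18, and Bcl2 at 0.58 and 0.53. Gdf15, a stress cytokine, was lower, at -0.77 and -1.13.

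Immediate early genes split. Of 38, 8 were at least 1.5-fold higher and 6 lower, with a median of 0.15. Atf3, a stress-induced factor, read 7799 units in native and 24431 in transplanted Sf3b1+/- cells, against 13135 and 22304 in wild-type cells, and Nr4a2, a nuclear receptor, 1571 units in native and 5708 in transplanted Sf3b1+/- cells, against 1919.8 and 4949 in wild-type cells. Dusp1, a phosphatase that ends MAP kinase signals, read 37470.0 units in native and 19486 in transplanted Sf3b1+/- cells, against 23016 and 14811 in wild-type cells, lower on both transplanted arrays, and the chemokine Cxcl2 differed by -1.01 and -1.37. Hmox1, which breaks down heme, was the 1 antioxidant gene of 25 to pass 1.5-fold, at 1.97 and 0.63, with its probes between 0.84 and 1.97 in Sf3b1+/- cells.

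Genes of G2 and mitosis were lower in transplanted cells of both genotypes. Of 37, 15 were at least 1.5-fold lower in Sf3b1+/- cells and none higher, with medians of -0.44 and -0.51. Mki67, the proliferation marker Ki-67, read 19227 units in native and 10897 in transplanted Sf3b1+/- cells, against 17194 and 9938 in wild-type cells. Cenpe, a kinetochore motor, read 6086 units in native and 2950.0 in transplanted Sf3b1+/- cells, against 5574 and 2943 in wild-type cells, and Plk1, a mitotic kinase, 7244 units in native and 4083 in transplanted Sf3b1+/- cells, against 5421 and 2898 in wild-type cells. Both transplanted arrays were below both native arrays in each. Kif20a, a motor of cell division, was lowest in the list, at -1.13 and -0.67. Replication genes did not go with them: of 37, 4 were higher and 1 lower with a median of -0.05. The higher count was near the share over all genes (11.4%), where 7.01% were lower. The higher ones were Rfc3 (0.95), Orc1 (0.92), Cdc45 (0.74) and Gins2 (0.67). Of 15 genes of G1 entry none was higher and 1, E2f3, was lower (-0.82). Cdkn2a, which encodes p16 and ARF, was well above background on both transplanted arrays only, at 56.3 units in Sf3b1+/- and 49.4 in wild-type cells. It was at least 2.73-fold higher in transplanted than in native Sf3b1+/- cells. Cdkn2a passed the background filter only through the arrays where it is high, so no p is given for it. Cdkn1c, the p57 inhibitor of quiescent stem cells, read 429 units in native and 638 in transplanted Sf3b1+/- cells, against 364 and 415 in wild-type cells. Of 30 break repair genes, 4 were lower and none higher.

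**Figure D4:**
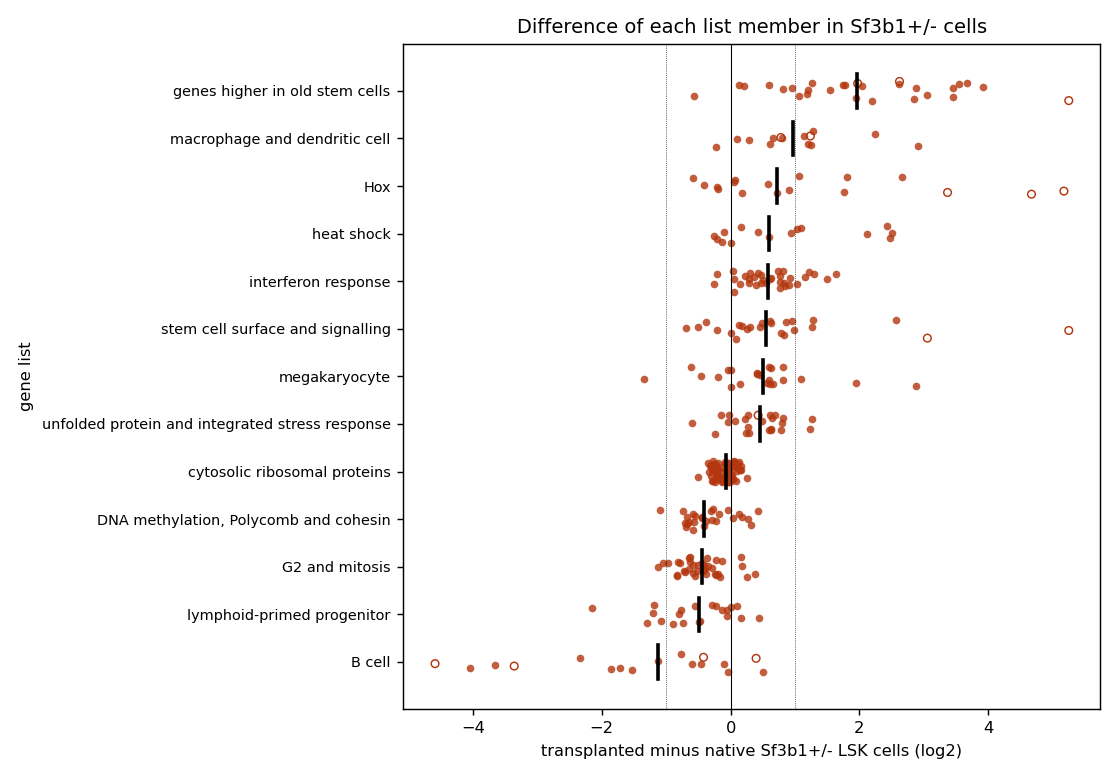
Transplanted minus native difference (log2) of each member of 13 gene lists in Sf3b1+/- cells, with filled points for genes that passed the background mark on both arrays, open points for the others, a bar at the median and dotted lines at 2-fold. Ribosomal protein genes stay between -0.51 and 0.26, while genes higher in old stem cells spread from -0.56 to 5.25.

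Chromatin genes were lower as a group. Of 27 genes of DNA methylation, Polycomb and cohesin, 8 were at least 1.5-fold lower and none higher, with medians of -0.41 and -0.21. Dnmt3a, the DNA methyltransferase that is often mutated in clonal hematopoiesis, read 1062 units in native and 496 in transplanted Sf3b1+/- cells, against 839 and 574 in wild-type cells. The cohesin ring genes Smc3, Smc1a and Rad21 differed by -0.68, -0.59 and -0.70 in Sf3b1+/- and by -0.51, -0.66 and -0.52 in wild-type cells. All 4 were lower on both transplanted arrays.

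Among 26 compared genes of TGF-beta and BMP signalling 9 were at least 1.5-fold higher and 1 lower in transplanted Sf3b1+/- cells, with a median of 0.04 (7, 3 and -0.14 in the wild type). Id1, Id2 and Id3 encode inhibitors of basic helix-loop-helix factors and are known targets of BMP signals. Id3 read 460.1 units in native and 2156 in transplanted Sf3b1+/- cells, against 801 and 1272 in wild-type cells. Id1 read 1543 units in native and 4461 in transplanted Sf3b1+/- cells, against 1494 and 2962 in wild-type cells, and Id2 427 units in native and 1006 in transplanted Sf3b1+/- cells, against 488 and 1247 in wild-type cells. Each was higher on both transplanted arrays than on both native ones. Bmp4, a ligand, read 70.2 units in native and 273 in transplanted Sf3b1+/- cells, against 69.7 and 228 in wild-type cells (limma adjusted p = 0.0394), and Bmp2 differed by 1.03 and 0.87. Of the other ligands on the list, Tgfb3 was at 1.27 and 0.66 and Tgfb1 at 0.21 and -0.06, while Tgfb2, Bmp6 and Inhbb were not well above background on any array. Inhba, which makes activin A, was at least 13.5-fold higher in transplanted Sf3b1+/- cells. The receptors and signal carriers stayed close to 0, with Tgfbr2 at -0.38, Smad3 at -0.31 and Smad4 at -0.34, and the inhibitor Smad6 was lower at -1.09. Among 34 cytokine receptor genes 9 were higher and 4 lower. Csf2rb2, a chain of the interleukin-3 receptor, was at 1.08 and 0.74, and Il6st, the shared chain gp130, at 0.95 and 0.79.

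The protein-making and energy machinery stayed near 0. The median was -0.07 over 77 cytosolic ribosomal protein genes (0.11 in wild type), 0.18 over 77 mitochondrial ones (0.30) and 0.11 over 78 genes of the respiratory chain (0.28). No cytosolic ribosomal or respiratory gene passed 1.5-fold in either direction in Sf3b1+/- cells. In all 3 groups the wild-type median was the higher one, and 7 of 77 cytosolic ribosomal genes had the larger value in Sf3b1+/- cells, where 50.5% is the share over all genes. Of 42 proteasome genes 4 were higher (median 0.19), and of 39 initiation factors 3 were higher and 1 lower. Over all genes 11.4% were higher and 7.01% lower, so neither list had more higher members than the array as a whole.

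Splicing genes moved little. Of 17 genes of SF3b and the U2 particle, 1 was at least 1.5-fold higher and none lower, with a median of -0.09. The higher one was U2af2, whose product recognises the polypyrimidine tract, at 0.83 and 0.41. Sf3b1 differed by -0.38 in Sf3b1+/- and -0.68 in wild-type cells, so the gap between the genotypes was smaller after transplantation. Sf3b3, another subunit of SF3b, read 21366 units in native and 17329 in transplanted Sf3b1+/- cells, against 15300.3 and 12749 in wild-type cells. Of 18 SR proteins and splicing factors of myeloid disease 2 were higher, Srsf7 (0.73) and Srsf6 (0.62), near the share of 11.4% over all genes. Of 16 genes of nonsense-mediated decay 1 was higher, Eif4a3 (0.73), and 1 lower, Upf3b (-0.63).

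Some genes differed at least 2-fold in Sf3b1+/- cells and less than 1.5-fold in the wild type. Of the genes at least 1.5-fold apart in Sf3b1+/- cells, 847 of 1482 upward and 565 of 914 downward stayed within 1.5-fold in the wild type. Evc2, a protein at the base of cilia that passes on hedgehog signals, read 118 units in native and 1247 in transplanted Sf3b1+/- cells, against 214 and 309 in wild-type cells. Fkbp10, a collagen chaperone, read 62.1 units in native and 256 in transplanted Sf3b1+/- cells, against 99.2 and 73.3 in wild-type cells, and Fap, a surface protease of fibroblasts, 62.9 units in native and 284 in transplanted Sf3b1+/- cells, against 92.3 and 91.7 in wild-type cells. In these 3 genes the native Sf3b1+/- array was the lowest and the transplanted Sf3b1+/- array the highest. Clip3 was at 1.87 and -0.38, and Prune1 at 1.38 and -0.48. In the other direction Lrmda, a gene of melanocyte differentiation, read 616 units in native and 45.8 in transplanted Sf3b1+/- cells, against 50.4 and 37.7 in wild-type cells, so the native Sf3b1+/- array was the outlying one. Slc27a2, a fatty acid transporter, read 189 units in native and 36.4 in transplanted Sf3b1+/- cells, against 147 and 102 in wild-type cells. Wfdc18, a whey acidic protein family member, read 653 units in native and 171 in transplanted Sf3b1+/- cells, against 839 and 638 in wild-type cells, and Arhgef28, a guanine nucleotide exchange factor, 371 units in native and 110.2 in transplanted Sf3b1+/- cells, against 316 and 274 in wild-type cells, with the transplanted Sf3b1+/- array lowest in all 3 of these last genes. Tspo2, an erythroid transporter, was at -1.31 and 0.31, Col5a1 at -1.76 and 0.03, and Wnt10a at -1.11 and 0.39. Each of these rests on 1 array per group, and the difference between the genotypes was not tested.

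Further genes were low after transplantation in both genotypes. Gfra2, a receptor for neurturin, read 213 units in native and 20.3 in transplanted Sf3b1+/- cells, against 790.1 and 23.7 in wild-type cells. Rftn2, a lipid raft protein, read 610.1 units in native and 49.2 in transplanted Sf3b1+/- cells, against 155 and 32.7 in wild-type cells, and Slc16a11, a monocarboxylate transporter, 4165 units in native and 533 in transplanted Sf3b1+/- cells, against 1943 and 664 in wild-type cells. Both transplanted arrays were below both native arrays for each. The same order held for Ddx4, a helicase of germ cells, at -2.27 and -0.9988, Cpe, a carboxypeptidase of secretory granules, at -2.13 and -1.75, and Tnfrsf17, a plasma cell receptor, at -2.79 and -0.69. Igf2r, the receptor that clears insulin-like growth factor 2, read 309 units in native and 99.4 in transplanted Sf3b1+/- cells, against 290.4 and 89.7 in wild-type cells (limma adjusted p = 0.0394). The background mark was passed by 51.5% of spots on the transplanted and 48.7% on the native Sf3b1+/- array. The lowest marked signals were 16.3 and 20.6 units. The part of this difference in detection in the next counts was not tested. Of 13033 compared genes, those seen on 1 of the Sf3b1+/- arrays only numbered 379 for the transplanted and 101 for the native array. Of these, 101 and 51 were at least 2-fold apart by their bound. Besides Hoxb8, Neo1 and Inhba, the former include Tbx1, a T-box factor, at least 14.0-fold higher, and Asb4 at least 11.7-fold. Besides Sparcl1, Col1a1, S100b and Bglap2, the latter include Plekhb1, at least 7.47-fold lower.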

How the data were processed

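RNA of sorted LSK cells was hybridised to 4 single-colour Agilent arrays (design 028005), all on 1 slide with 1 scan time, read with Feature Extraction 10.7.1.1 per the file headers (probe positions on mm9). Per the labels, 20 ng of total RNA with spike-in transcripts was amplified and labelled with Cy3. The deposited scanner files give spot intensity, and the processed signal is, per the file headers, that intensity with background subtracted and spatial trends within the array removed. The deposited series table holds ratio values that, set against the scanner files, equal the processed signal divided by 1 constant per array (column medians 0.0810, 0.0745, 0.0816 and 0.0747, r of 1.00). They are linear and not centred, a larger value means more signal, and the sources used here do not name the tool behind this step.

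Control spots and outlier spots were left out, spots of a probe were averaged as log2, and each array was shifted by the 75th percentile of the probes well above background on all 4 arrays. No spot was saturated, and 47.7% to 51.5% of spots were well above background. Names came from RefSeq accessions through GRCm38.p6, used for names alone, and the probe with the highest mean stood for its gene. Groups came from the labels. Members, gene lists and the rule for named genes were chosen with earlier results of these data known. The rule took the 12 furthest genes each way on all 4 arrays, 10 each way shared with the wild type, 8 each way seen in Sf3b1+/- cells alone, up to 8 members of each list, 5 each way seen on 1 Sf3b1+/- array, and cell type markers. Further list members were picked after their values were seen. Setting and genotype were fitted with lmFit and eBayes of limma 3.58.1 (R 4.3.3, two-sided tests), with a prior of 3.05 degrees of freedom. Tested on simulated data for 13033 genes, the adjusted call found 94% of genes changed 4-fold, 2% of those changed 2-fold, and 5 unchanged genes. The simulation changed 100 genes at each fold and drew independent normal noise, without a genotype effect or a difference in response between the genotypes. These rates therefore need not hold for the real arrays. Python 3.11.15 and pandas 2.3.3 summarised the tables, matplotlib 3.10.9 drew the plots, and files were read with the R package data.table (version 1.17.8). The number of arrays limits the precision, and batches of sorting or labelling cannot be told apart from the groups.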

Additional observations from a re-analysis of the deposited data

Results flagged for a closer look

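Only genes on the gene lists or named in the text were searched here. Of these, 5 had differences of opposite sign in the genotypes, each at least 1.5-fold, and were well above background on all 4 arrays. Over all genes well above background on all 4 arrays, 16 were that much higher in Sf3b1+/- and lower in wild-type cells. Another 9 went the reverse way. Plagl1, an imprinted zinc finger factor, differed by 1.87 in Sf3b1+/- and -0.62 in wild-type cells, and read 40.1 units in native and 147 in transplanted Sf3b1+/- cells, against 78.4 and 50.9 in wild-type cells. Its probes disagreed in Sf3b1+/- cells, from -0.39 to 1.87. Arc, an immediate early gene of neurons that forms RNA-carrying particles, differed by 1.37 and -0.92, and read 115 units in native and 297 in transplanted Sf3b1+/- cells, against 98.3 and 51.9 in wild-type cells. Vcam1, an adhesion molecule of stroma and macrophages, differed by 0.69 and -1.5. Nkx2-3, a homeodomain factor, differed by 0.62 and -0.69. Il18r1, the interleukin-18 receptor, ran the other way, with -0.92 in Sf3b1+/- and 0.86 in wild-type cells. The difference between the genotypes was not tested for any of them, since each group has 1 array.

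Medians of 4 gene lists had opposite signs in the genotypes and lay at least 0.1 log2 from 0 in both, again untested. Other lists had opposite signs with a median closer to 0, such as megakaryocyte genes (0.51 in Sf3b1+/- and -0.02 in wild-type cells) and cytosolic ribosomal protein genes (-0.07 and 0.11). Sterol and fatty acid synthesis genes had a median of 0.15 in Sf3b1+/- and -0.19 in wild-type cells. Glycolysis and hypoxia genes were at 0.17 and -0.15, and immediate early genes at 0.15 and -0.14. The adrenomedullin and calcitonin receptor family was at 0.21 and -0.12 over 8 genes, but at 0.03 in Sf3b1+/- cells with members below background at their bound and 0.01 over the 6 genes seen on all 4 arrays.

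Probes without a gene name carried signal outside the comparisons of named genes. Of these, 9571 passed the background mark in native and transplanted Sf3b1+/- cells. Transplanted cells stood 2-fold or more above native ones for 243 of them and as far below for 244. Their median difference was -0.01, against 0.12 in the wild type.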

How the results depend on the processing

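Alternatives changed the counts more than the directions, though under several of them the directions could not change. Genes at least 2-fold higher and lower in Sf3b1+/- cells numbered 4039 and 57 with spike-in scaling, 219 and 96 with normexp background correction, 1127 and 902 without the filter, and 145 were lower when all 4 arrays had to pass. Genes at least 1.5-fold apart in both genotypes numbered 4140 higher and 53 lower with spike-in scaling and 210 and 194 with normexp, and 654 were lower without the filter. Genes at least 1.5-fold higher and lower in Sf3b1+/- cells alone (1482 and 914) numbered 9263 and 99 with spike-in scaling and 2397 and 2107 without the filter, and 683 were higher with normexp. Genes 2-fold apart in the wild type (364 and 208) numbered 1085 and 81 with spike-in scaling, 93 and 45 with normexp, 777 and 797 without the filter, and 185 and 120 when all 4 arrays had to pass. Quantile normalization, cyclic loess, the percentile over all probes, the authors' table and the mean over probes kept these counts within 1.5 times. The limma counts (56 higher and 20 lower) were the least stable: 0 and 0 with quantile normalization, with cyclic loess and without the filter (3302, 3306 and 3560 genes at an unadjusted p under 0.05), 5350 and 74 with spike-in scaling, 579 and 856 with normexp, 4 and 3 with the authors' table, 193 and 71 when all 4 arrays had to pass, 5 and 2 with the mean over probes, and 37 higher with the percentile over all probes. The cause was not tested. Scaling to spike-ins, the percentile over all probes and the authors' table each move every gene alike within an array, by construction. Values relative to the median of all genes therefore had to stay the same there, for all 44 list medians and 236 named genes in each. For single genes, a change of the filter moves only that median. The totals below include these fixed values and are no check of robustness to that extent. Relative to the median of all compared genes, no named gene at least 1.5-fold apart changed sign under any alternative, and of 396 list medians recomputed 372 stayed within the technical SD, 22 moved further and 2 changed sign, both without the filter: Hox genes to -0.16 and SF3b and U2 genes to 0.038. Of 2107 values of named genes, 1965 stayed within that SD and 142 moved further, 116 of them with normexp. The planned normexp column was absent from the files used, so the spots' median signal took its place. Leaving out an array left no residual degree of freedom and was not run. No paired analysis was possible because each group holds a single array. Dim genes are limited by background: 373 of 626 higher genes lie among the 3259 dimmest.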

Other observations

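Metabolic groups not described above differed little. Of 26 sterol and fatty acid genes 5 were at least 1.5-fold higher and 1 lower in transplanted Sf3b1+/- cells. Lss, which closes the sterol rings, read 92.5 units in native and 166 in transplanted Sf3b1+/- cells, against 112 and 109.6 in wild-type cells. Acly, which supplies acetyl-CoA, was lower, at -0.60 and -0.50. Of 30 genes of glycolysis and hypoxia 2 were higher and 1, Hif1a, was lower (-0.60).

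Imprinted growth genes showed mixed values. Of 8 compared, Ndn, a growth suppressor of the necdin family, differed by 1.56 in Sf3b1+/- and -0.13 in wild-type cells, Dlk1, a Notch-like ligand, by -0.48 and -1.44, and Sgce by 0.03 and -0.68. Of genes with several probes seen on both Sf3b1+/- arrays, 89 were at least 2-fold apart, and all probes pointed in 1 direction for 79 of them.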
